A study of Mus musculus with 15 samples.

Results

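The genes described here are Rgs12, Ikbkg, Emp3, Rab34, Kif7, Vps37b, Exoc3l4, Smyd3 and Ptar1. They are 9 of the 55416 genes in the count table, and 81 of the 140789 transcripts in the transcript table belong to them. They were selected on measured values, as the genes whose transcripts changed their share of the gene with the lowest p under high stretch. In that comparison none of 23374 transcripts passed an adjusted p of 0.05, so the genes are candidates, and their high-stretch values are given below as a description with no test. For each gene the lead transcript is the one with the lowest p there, and the counterpart is the transcript of the same gene whose share moved most the other way. The 9 leads stood between rank 1 and rank 15. The last of them was Rab34-203 at a change of -12.9 points of share, and the first transcript outside was one of Car14 at rank 16, with a change of -27.1 points. Transcripts of Arhgap22, Susd1 and C4b, at ranks 2, 8 and 13, also lay within that range and belong to none of the 9 genes.

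The cells were SVI, a conditionally immortalised mouse podocyte line, differentiated and seeded on flexible silicone membranes whose centre was moved up and down by pressure, to model glomerular hypertension in culture. Experiment 1 held 3 unstretched and 6 low-stretch samples, and experiment 2 held 3 unstretched and 3 high-stretch samples. The sample labels give a deflection of 5 to 6 mm for low stretch and 7 to 8 mm for high stretch, and the design text gives 6 mm and 8 mm. All groups are 1 cell line, and amplitude and experiment cannot be told apart. Poly(A) RNA was sequenced as stranded libraries. Nothing in the labels says that samples of 1 group were separate cultures, so the p-values below measure only the spread between these samples.

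Most mouse genes give several transcripts, made by starting at different promoters, by joining exons differently or by ending at different sites. A share of a gene, here the TPM of a transcript (a level scaled to its length and to its library) as a percentage of the TPM of all its gene's transcripts, describes that choice apart from the gene's level. A share can move because the transcript itself changed or because the others did, so both are given. When transcripts overlap for nearly all of their length, a program that assigns reads can place the same reads on either of them.

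Total counts per sample, in units of 1e6, were between 279.1 and 294.6 in the unstretched and 262.0 and 396.7 in the low-stretch samples of experiment 1, and between 172.2 and 264.5 in the unstretched and 178.2 and 297.6 in the high-stretch samples of experiment 2. TPM carry no depth, and the share of all transcripts listed at 0 was 39.5% to 42.6% in experiment 1 and 44.5% to 52.8% in experiment 2. Of the 81 transcripts here, 4 were listed at 0 in every sample, 44 in some samples and 33 in none. A transcript listed at 0 can be a failed estimate rather than absence. Of 8 podocyte markers, 4 had a mean of at least 1 TPM, led by Synpo at 97.7 to 208 TPM. Nphs1, which encodes the slit diaphragm protein nephrin and marks a mature podocyte, was near 0, at most 0.151 TPM. The podocyte sum, almost all of it Synpo and Podxl, was 199 to 207 TPM unstretched and 132.9 to 256 TPM under low stretch. In experiment 2 it was 204 to 236 TPM unstretched and 170 to 218 TPM under high stretch. Wt1 was lower without overlap in both experiments. It was at 4.595 to 6.78 TPM against 1.303 to 4.41 TPM, and 0.908 to 4.75 TPM against 0.342 to 0.379 TPM. Podxl was lower without overlap under low stretch, at 60.3 to 62.6 TPM against 32.4 to 50.5 TPM, and overlapped in experiment 2. Synpo and Lmx1b overlapped in both. Of the lists for other cells, 2 of 4 mesangial, 1 of 4 tubular, 1 of 3 immune and 0 of 4 endothelial markers reached a mean of 1 TPM. The tubular sum, almost all of it Lrp2, was 114 to 134 TPM unstretched and 50.4 to 89.2 TPM under low stretch, and 22.3 to 70.8 TPM unstretched and 17.6 to 37.4 TPM under high stretch. The mesangial sum was 34.9 to 40.0 TPM against 19.9 to 30.6 TPM in experiment 1, and 35.1 to 43.1 TPM against 27.9 to 28.5 TPM in experiment 2. The immune sum, almost all of it Cd68, was 1.618 to 1.76 TPM against 1.20 to 1.616 TPM in experiment 1, and 0.788 to 1.52 TPM against 1.97 to 2.16 TPM in experiment 2. The mesangial and immune sums did not overlap between the groups in either experiment. The immune sum was lower under low stretch, by a narrow gap, and higher under high stretch. The tubular sum overlapped in experiment 2 only, and the podocyte sum in both. Whether these marker levels bear on the shares was not tested, and in bulk RNA fewer cells of a type and less RNA per cell cannot be told apart.

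Under high stretch the share of the lead did not overlap between the stretched and unstretched samples for 9 of 9 genes. This is what selected them, and the same held for 14.6% of all transcripts tested. Experiment 1 shares no sample with that comparison. There the mean share of the lead moved the same way for 7 of 9 genes. Only 6 of the leads entered the usage tests of both experiments, and 5 of these 6 moved the same way, against 63.1% of the 21500 transcripts that entered both. The exceptions were Kif7, which moved the other way, and Ptar1, whose lead was listed at 0 in all 9 samples. For Vps37b the agreement rested on 1 unstretched sample. The change was smaller under low stretch than under high stretch for 9 of 9 leads and for 64.3% of all transcripts, and nothing is read from this, since the leads were chosen for their change under high stretch.

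**Figure D1:**
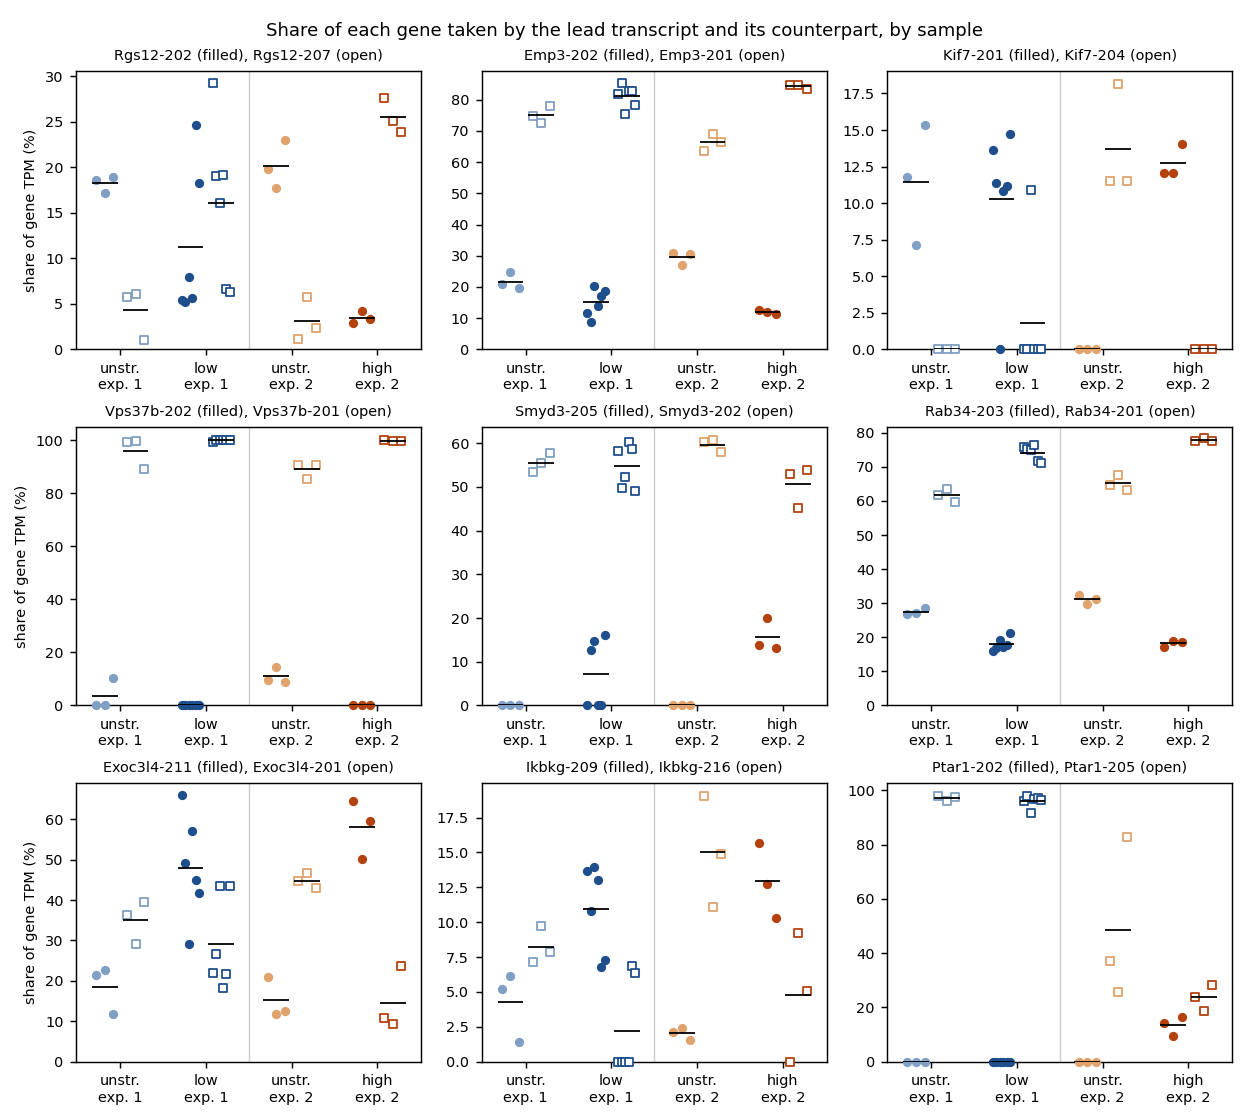
Share of gene TPM (%, y axis) of the lead transcript (filled circles) and its counterpart (open squares) in each sample of the 4 groups, with bars at the group means. Under high stretch (exp. 2) all leads stand apart from their unstretched samples, while under low stretch (exp. 1) only those of Rab34, Exoc3l4 and Ikbkg do.

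Tested in experiment 1 with limma, 0 of the 21 member transcripts that entered the usage test passed an adjusted p of 0.05 (background 0.0145% of 27672 transcripts). The lowest adjusted p was 0.0759, for Rab34-201. Shares that did not overlap between the groups were seen for 3 of 9 leads under low stretch, Rab34, Exoc3l4 and Ikbkg, against 5.44% of all transcripts. For the level of single transcripts, 0 of 49 members passed (background 0.658%). For the whole gene, 1 of 9 passed the edgeR quasi-likelihood test, Exoc3l4, against 5.45% of all genes.

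Samples of experiment 1 were also grouped into 3 sets, called runs here, though no label names a run. The sets rest only on neighbouring codes in the sample descriptions, whose meaning is not stated. Each held 1 unstretched and 2 low-stretch samples. Deviations from the group means correlated at 0.332 to 0.579 within these sets, with a mean of 0.449 against -0.223 for other pairs. The codes of experiment 2 also form sets of neighbours, each of 1 unstretched and 1 high-stretch sample. With the run as a block, 6 of the 21 member transcripts passed for usage (background 0.195%), and 7 of the 9 genes passed for level, all but Rgs12 and Ikbkg (background 28.2%). Among the 6 transcripts were Rab34-201 with Rab34-203, Ikbkg-204 with Ikbkg-209, and Rgs12-207. Shares within 1 gene depend on each other, so these are not 6 independent results. The fit without the block is the one reported unless the block is named.

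**Figure D2:**
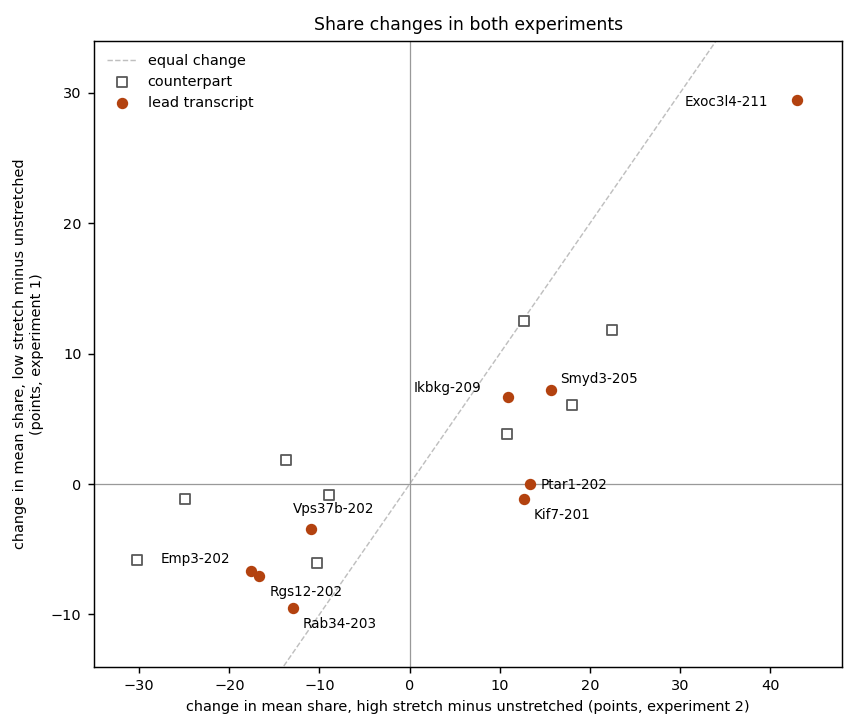
Change of the mean share in points under high stretch (x axis, experiment 2) and under low stretch (y axis, experiment 1) for the 9 leads (filled circles) and their counterparts (open squares), with the line of equal change. Leads lie in the lower left and upper right except Ptar1-202, at 0 under low stretch, and Kif7-201, at -1.12 points.

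Rgs12 and Ikbkg are signalling regulators. Rgs12, on chromosome 5, encodes a scaffold that speeds the shut-off of G protein alpha subunits, and its longest protein forms carry further binding domains ahead of the RGS domain. Rgs12-202, the lead, has a coding sequence of 4353 bases, while that of the counterpart Rgs12-207 has 2409 bases. Both coding sequences end in the same 2357 bases, which leaves 1996 coding bases only in Rgs12-202 and 52 only in Rgs12-207. They part at the start of an exon that Rgs12-205 also uses after sequence of its own. The sequences across that point are shown because they are what tells the 3 forms apart. They come from GENCODE M21 transcripts, run 5′ to 3′, and the capitals mark the exon that all 3 share.
Rgs12-202: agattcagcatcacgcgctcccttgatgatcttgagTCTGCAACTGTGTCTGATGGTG
Rgs12-207: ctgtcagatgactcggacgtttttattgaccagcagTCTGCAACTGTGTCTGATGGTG
Rgs12-205: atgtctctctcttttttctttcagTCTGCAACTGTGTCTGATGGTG

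Rgs12-202 took 19.8%, 17.7% and 23.0% of the gene in the unstretched and 2.91%, 4.24% and 3.30% in the high-stretch samples. Rgs12-207 took 1.17%, 5.77% and 2.35% in the unstretched and 27.6%, 25.1% and 23.9% in the high-stretch samples. The order of the 2 forms was thus reversed in all 3 samples, while the main form, Rgs12-201, stayed between 52.5% and 57.8%. In experiment 1 Rgs12-202 took 18.6%, 17.2% and 18.9% in the unstretched samples and 5.43%, 5.21%, 7.90%, 5.59%, 24.7% and 18.3% in low-stretch replicates 1 to 6. Rgs12-207 took 5.75%, 6.08% and 0.991% in the unstretched samples and 29.2%, 19.0%, 16.0%, 19.2%, 6.65% and 6.26% in the low-stretch samples. Low-stretch replicates 1 to 4 were below the unstretched samples in Rgs12-202, replicates 5 and 6 were not, and all 6 were above them in Rgs12-207.

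Low-stretch replicates 5 and 6 share a run with unstretched replicate 3. Within the 3 runs the change of Rgs12-202 was -13.3, -10.5 and +2.59 points. The usage change of Rgs12-202 (log2 of the transcript over the other transcripts of the gene) was -1.09 ± 0.56 (SE) with a limma adjusted p of 0.561, and that of Rgs12-207 was 2.12 ± 0.67 (SE) with an adjusted p of 0.369. Rgs12-207 passed only with the run as a block, at an adjusted p of 0.0267. In level, Rgs12-202 had a log2 change of -0.91 ± 0.42 (SE; limma adjusted p 0.311). That of Rgs12-207 was 1.99 ± 0.67 (SE; limma adjusted p 0.187, and 0.00488 with the run as a block). Together Rgs12-202, Rgs12-207 and Rgs12-205 kept a near constant part of the gene, 33.4% ± 1.36 (SD, n = 3) and 32.7% ± 2.75 (SD, n = 6) without and with stretch in experiment 1, and 37.7% ± 0.959 (SD, n = 3) and 36.04% ± 2.27 (SD, n = 3) in experiment 2. Rgs12-202 and Rgs12-207 alone did not. Their mean sum was 22.5% and 27.3% in experiment 1, with overlap, and 23.3% and 29.0% in experiment 2, without overlap. The mean share of Rgs12-205 went from 10.8% to 5.39% under low stretch and from 14.4% to 7.02% under high stretch. The level of the whole gene was 33.0, 35.6 and 32.1 TPM unstretched and 43.6, 45.7 and 47.0 TPM under high stretch, with no overlap. Its counts gave a log2 fold change of 0.12 ± 0.10 (SE; edgeR adjusted p 0.500) under low stretch.

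**Figure D3:**
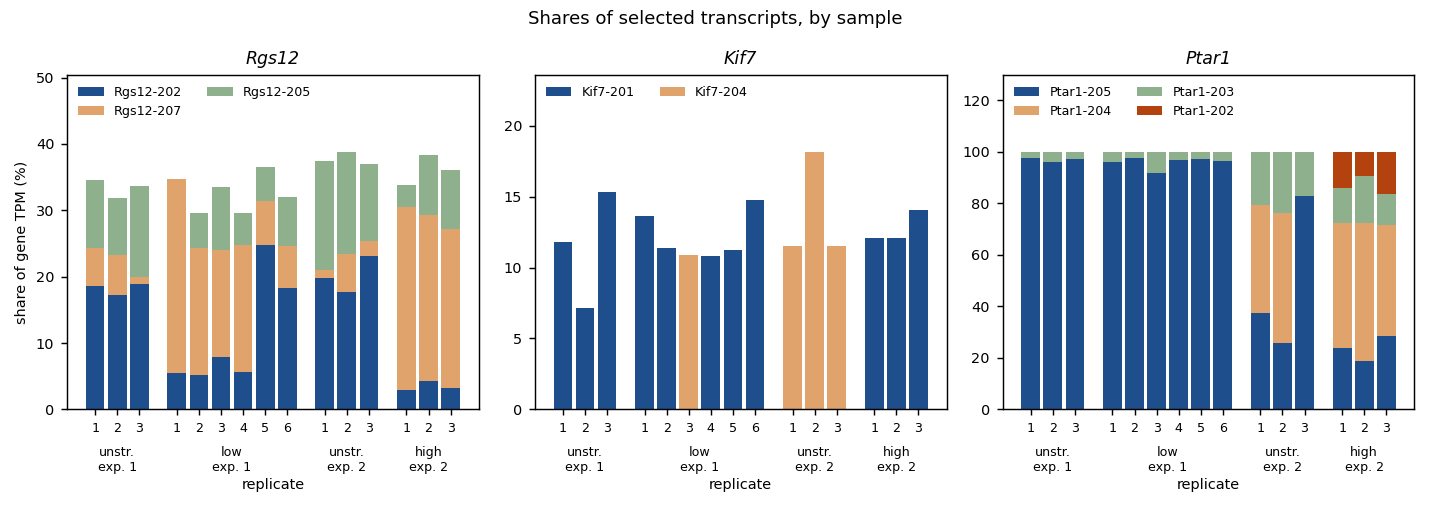
Share of gene TPM (%, y axis) of selected Rgs12, Kif7 and Ptar1 transcripts, stacked for each replicate (x axis) of the 4 groups. The stacks of Rgs12 and Kif7 keep a similar height while their parts trade places, and Ptar1-204 appears only in experiment 2.

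Ikbkg, on the X chromosome, encodes NEMO, the regulatory subunit of the IKK complex that releases NF-kB. Its lead, Ikbkg-209, is a fragment of 278 bases in the annotation. It shares its first exon region with Ikbkg-204, which is 1867 bases long and has the same coding sequence as Ikbkg-203, a transcript with another first exon. The 2 were close in pattern. Ikbkg-209 took 2.10%, 2.40% and 1.58% unstretched and 15.7%, 12.8% and 10.3% under high stretch, and Ikbkg-204 took 6.86%, 9.54% and 4.21% unstretched and 29.3%, 25.2% and 26.8% under high stretch. In experiment 1 Ikbkg-209 took 5.24%, 6.13% and 1.40% unstretched and 13.7%, 10.8%, 14.0%, 13.0%, 6.78% and 7.27% under low stretch. Every low-stretch sample was above every unstretched one, with replicates 5 and 6 nearest to them. The same order held for Ikbkg-204, at 8.48%, 10.7% and 3.53% unstretched and 24.9%, 18.4%, 26.1%, 23.4%, 11.5% and 12.1% under low stretch.

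Summed over the 6 transcripts that begin in that first exon region, the share of Ikbkg was 10.4% to 23.0% unstretched and 23.2% to 47.1% under low stretch, and 7.24% to 15.1% unstretched and 42.3% to 50.1% under high stretch. Neither experiment had an overlap, though the gap in experiment 1 was narrow. The usage change under low stretch was 1.56 ± 0.44 (SE; limma adjusted p 0.326) for Ikbkg-209 and 1.58 ± 0.43 (SE; adjusted p 0.301) for Ikbkg-204. With the run as a block both passed, at adjusted p values of 0.0465 and 0.0236. In level, Ikbkg-209 had a log2 change of 1.70 ± 0.52 (SE; limma adjusted p 0.159, and 0.00865 with the block). That of Ikbkg-204 was 1.63 ± 0.49 (SE; limma adjusted p 0.155, and 0.00676 with the block). Within the 3 runs Ikbkg-209 gained 6.99, 7.36 and 5.63 points. The counterpart, Ikbkg-216, is a partial transcript that shares no base with the lead. It took 7.11%, 9.75% and 7.85% in the unstretched samples of experiment 1. It was listed at 0 in low-stretch replicates 1 to 4 and took 6.84% and 6.33% in replicates 5 and 6. In experiment 2 it took 19.0%, 11.1% and 14.9% unstretched. Under high stretch it was listed at 0 in replicate 1 and took 9.24% and 5.09% in the others. Its groups did not overlap in either experiment. The gene's counts gave a log2 fold change of 0.27 ± 0.14 (SE; edgeR adjusted p 0.259), and the TPM of the gene was 33.7 to 40.4 unstretched and 43.6 to 53.5 under high stretch.

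Emp3, on chromosome 7, encodes a small membrane protein of the PMP22 family with 4 membrane spans. Its lead Emp3-202 and counterpart Emp3-201 differ in their first exon and have an identical coding sequence of 489 bases, so the shift concerns the start of the RNA and not the protein. Emp3-202 took 30.8%, 27.1% and 30.6% unstretched and 12.5%, 11.8% and 11.4% under high stretch. In experiment 1 it took 20.8%, 24.7% and 19.7% unstretched and 11.5%, 8.88%, 20.3%, 13.8%, 17.1% and 18.8% under low stretch. The low-stretch samples were mostly lower, and replicate 3 overlapped the unstretched ones. The usage change was -0.69 ± 0.28 (SE; limma adjusted p 0.456).

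The TPM of Emp3-202 itself overlapped between the groups, at 1.498, 2.10 and 1.14 unstretched and 1.33 to 2.53 under low stretch, with a log2 change of 0.14 ± 0.23 (SE; limma adjusted p 0.774). Emp3-201 was at 5.37, 6.17 and 4.53 TPM unstretched and 11.8, 12.8, 9.36, 10.6, 6.72 and 7.33 TPM under low stretch, with no overlap and a log2 change of 0.83 ± 0.21 (SE; limma adjusted p 0.105, and 0.00969 with the run as a block). So the share of Emp3-202 was lower where Emp3-201 was higher. The whole gene had a log2 fold change of 0.83 ± 0.22 (SE) and missed the edgeR threshold narrowly, at an adjusted p of 0.0502. It passed in 7 of 17 other settings, and over all 17 the adjusted p was between 0.000394, with the run as a block, and 0.370. Under high stretch the gene was at 19.8, 20.5 and 19.8 TPM against 11.2, 12.1 and 7.00 TPM.

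Rab34 and Kif7 serve the primary cilium. Rab34, on chromosome 11, encodes a small GTPase needed to build cilia, and it was the most abundant of the 9 genes, at 88.1 to 189 TPM. Rab34-203, the lead, and Rab34-201, its counterpart, begin in different first exons whose starts lie 349 bases apart, and their coding sequences of 777 bases are identical. Rab34-203 took 26.7%, 27.2% and 28.7% of the gene unstretched and 16.0%, 16.99%, 19.3%, 17.1%, 17.7% and 21.3% under low stretch. In experiment 2 it took 32.4%, 29.8% and 31.3% unstretched and 17.3%, 18.9% and 18.7% under high stretch. Stretched samples were below unstretched ones in both experiments with no overlap, replicates 5 and 6 of low stretch included, and the stretched means were alike, 18.1% and 18.3%.

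Rab34-201 mirrored it, at 61.7%, 63.6% and 59.7% unstretched and 76.0%, 75.2%, 74.9%, 76.3%, 71.7% and 71.1% under low stretch. Its usage change was 0.84 ± 0.11 (SE; limma adjusted p 0.0759), and that of Rab34-203 was -0.79 ± 0.12 (SE; adjusted p 0.108). These were the lowest adjusted p values among the usage tests of the 9 genes, and neither passed. Rab34-201 passed in 5 of 21 other settings and Rab34-203 in 3 of 21, with adjusted p values from 0.0221 and 0.0253 up to 0.807 for both. Within the 3 runs the change of Rab34-203 was -10.2, -9.00 and -9.26 points. In TPM, Rab34-201 had a log2 change of 0.54 ± 0.12 (SE; limma adjusted p 0.0783, and 0.00327 with the run as a block) and Rab34-203 one of -0.34 ± 0.12 (SE; adjusted p 0.208). The gene was at 136, 147 and 126 TPM unstretched and 164, 189 and 177 TPM under high stretch, and the low-stretch log2 fold change of its counts was 0.38 ± 0.13 (SE; edgeR adjusted p 0.117, and 0.00138 with the run as a block).

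Kif7, on chromosome 7, encodes a kinesin-like protein at the tip of the cilium that controls Gli factors in Hedgehog signalling. Its main transcript, Kif7-203, took 81.8% to 92.8% of the gene in every sample. The lead, Kif7-201, and the counterpart, Kif7-204, have an identical coding sequence of 4041 bases. Kif7-204 has 5 bases that Kif7-201 lacks, and Kif7-201 has 433 bases that Kif7-204 lacks. Both leave out 3 coding bases of Kif7-203, shown in capitals in the sequences below, from GENCODE M21, because they are the one coding difference and it does not separate the lead from its counterpart.
Kif7-203: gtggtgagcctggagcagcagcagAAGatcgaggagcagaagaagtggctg
Kif7-201: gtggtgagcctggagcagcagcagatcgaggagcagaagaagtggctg
Kif7-204: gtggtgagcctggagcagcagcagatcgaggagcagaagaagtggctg

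Kif7-201 was listed at 0 in the 3 unstretched samples of experiment 2 and took 12.1%, 12.1% and 14.0% under high stretch. Kif7-204 took 11.5%, 18.2% and 11.5% in those unstretched samples and was listed at 0 in all 3 high-stretch samples. Exactly 1 of the 2 was thus above 0 in each sample. The same held in experiment 1, where Kif7-201 took 11.8%, 7.15% and 15.3% unstretched and 13.7%, 11.3%, 0%, 10.8%, 11.2% and 14.7% under low stretch, and Kif7-204 was listed at 0 in all but low-stretch replicate 3, where it took 10.9%. Their sum in experiment 1 was 11.4% ± 4.10 (SD, n = 3) unstretched and 12.1% ± 1.67 (SD, n = 6) stretched, and in experiment 2 it was 13.7% ± 3.83 (SD, n = 3) and 12.7% ± 1.14 (SD, n = 3). The sum did not separate the groups, and the usage change of Kif7-201 under low stretch was -0.26 ± 0.60 (SE; limma adjusted p 0.913). Without low-stretch replicate 3 it was 0.19, the direction of high stretch. In level, Kif7-201 had a log2 change of -0.59 ± 0.58 (SE; limma adjusted p 0.621) under low stretch. The gene was at 5.31, 5.29 and 5.52 TPM unstretched and 3.74 to 5.00 TPM under low stretch, with a log2 fold change of -0.26 ± 0.09 (SE; edgeR adjusted p 0.115, and 0.0146 with the run as a block).

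Vps37b and Exoc3l4 belong to membrane traffic. Vps37b, on chromosome 5, encodes a subunit of ESCRT-I, the complex that sorts ubiquitin-tagged proteins into multivesicular bodies. Nearly all of its RNA was Vps37b-201, the coding form. The lead, Vps37b-202, is a processed transcript with no coding sequence that starts 20557 bases away and joins the shared exon marked by capitals below. The sequences are from GENCODE M21 and show the junctions that separate the 2 forms.
Vps37b-201: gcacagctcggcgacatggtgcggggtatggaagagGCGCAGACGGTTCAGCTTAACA
Vps37b-202: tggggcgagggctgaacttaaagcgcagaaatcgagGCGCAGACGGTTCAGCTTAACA

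Vps37b-202 took 9.52%, 14.5% and 8.78% of the gene in the unstretched samples of experiment 2 and was listed at 0 in the 3 high-stretch samples. In experiment 1 it was listed at 0 in unstretched replicates 1 and 2 and in all 6 low-stretch samples, and took 10.4% in unstretched replicate 3. A difference under low stretch thus rested on that 1 sample, and without it Vps37b-202 was listed at 0 throughout. Neither form entered the usage test of experiment 1, since the mean share of each lay outside 5% to 95%. The level of Vps37b-201 had a log2 change of 0.19 ± 0.13 (SE; limma adjusted p 0.462), and that of Vps37b-202 one of -1.23 ± 0.69 (SE; adjusted p 0.390). The whole gene was at 18.7, 20.6 and 18.2 TPM unstretched and 21.5, 22.5 and 21.6 TPM under high stretch, and the low-stretch log2 fold change of its counts was 0.26 ± 0.14 (SE; edgeR adjusted p 0.280, and 0.0185 with the run as a block).

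Exoc3l4, on chromosome 12, encodes a protein related to a subunit of the exocyst, which tethers vesicles to the plasma membrane. Its lead, Exoc3l4-211, is a retained-intron form of 774 bases whose first 161 bases run up to an exon that Exoc3l4-201, the coding counterpart, also holds. The GENCODE M21 sequences at this boundary are shown with the shared exon in capitals, and the lower-case part of Exoc3l4-211 is intron sequence just before that exon.
Exoc3l4-201: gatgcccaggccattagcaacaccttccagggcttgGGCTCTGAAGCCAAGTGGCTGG
Exoc3l4-211: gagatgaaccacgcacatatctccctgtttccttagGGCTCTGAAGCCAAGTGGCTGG

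Exoc3l4 was the 1 gene of the 9 that passed the test without a block, and its level fell under low stretch, with a log2 fold change of -1.97 ± 0.32 (SE; edgeR adjusted p 0.00875), lower in 6 of 6 samples. It was at 3.04, 1.45 and 1.92 TPM unstretched and 1.03, 1.25, 0.417, 0.756, 0.651 and 0.573 TPM under low stretch. In experiment 2 it was at 3.51, 3.897 and 4.40 TPM unstretched and 0.889, 0.7998 and 0.865 TPM under high stretch. The stretched samples were below the unstretched ones in both experiments. The call was lost in 2 of 17 other settings, with the replicate number as a block (adjusted p 0.0643) and without the second run of samples (adjusted p 0.0576). It was the least counted of the 9 genes, with 58 to 941 counts a sample.

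The share of Exoc3l4-211 was 21.4%, 22.6% and 11.9% unstretched and 66.1%, 49.1%, 29.0%, 57.1%, 44.9% and 41.9% under low stretch. In experiment 2 it was 21.0%, 11.9% and 12.6% unstretched and 64.5%, 50.1% and 59.5% under high stretch. The groups did not overlap in either experiment, and these were the largest share changes of the 9 leads. The usage change under low stretch was 1.84 ± 0.33 (SE; limma adjusted p 0.176), with gains of 36.3, 20.5 and 31.5 points within the 3 runs. The level of Exoc3l4-211 itself was 0.649, 0.327 and 0.228 TPM unstretched and 0.121 to 0.684 TPM under low stretch, a log2 change of -0.05 ± 0.42 (SE; limma adjusted p 0.960). Exoc3l4-201 was at 1.11, 0.421 and 0.760 TPM unstretched and 0.138 to 0.334 TPM under low stretch, with no overlap and a log2 change of -1.42 ± 0.30 (SE; limma adjusted p 0.0632, and 0.0116 with the run as a block). Under low stretch the larger share of Exoc3l4-211 thus stood beside a lower level of Exoc3l4-201, and not a higher level of its own. The share of Exoc3l4-201 overlapped there, with a usage change of -0.23 ± 0.32 (SE; limma adjusted p 0.850). Exoc3l4-209 and Exoc3l4-210 also have coding sequences of 2163 bases. The mean share of Exoc3l4-209 changed by -11.45 points under low stretch and, the other way, by 12.91 points under high stretch. That of Exoc3l4-210 changed by -2.79 and -1.89 points.

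**Figure D4:**
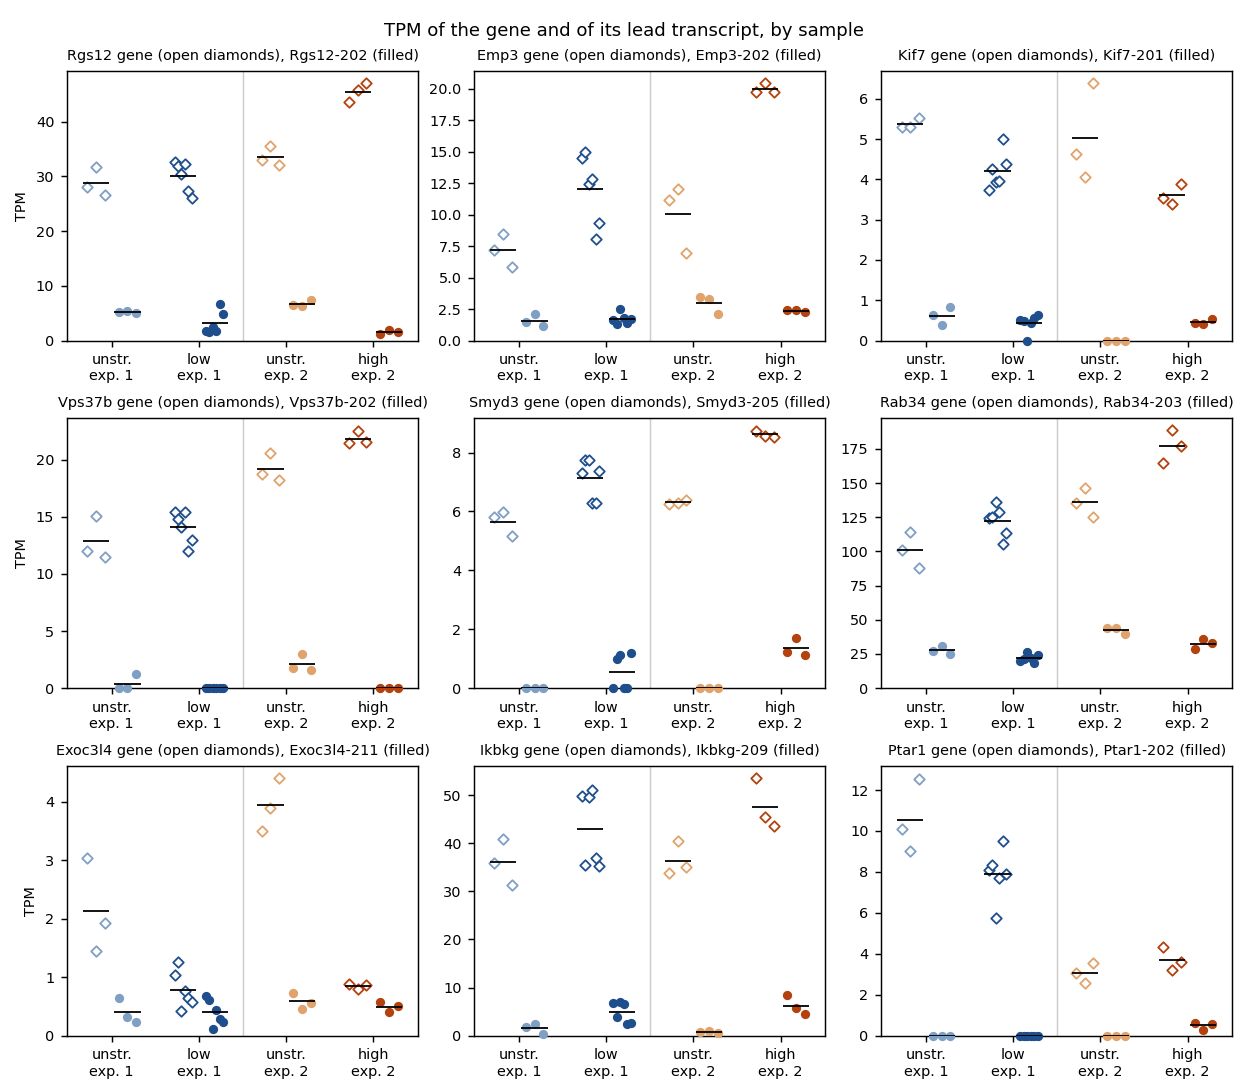
TPM (y axis, linear, own scale in each panel) of each gene (open diamonds) and of its lead transcript (filled circles) in every sample of the 4 groups, with bars at the group means. Exoc3l4 is at a mean of 0.851 TPM under high stretch and its lead at 0.496 TPM, and Ptar1 is at 10.6 and 3.06 TPM in the unstretched samples of the 2 experiments.

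Smyd3 and Ptar1 are linked to protein modification. Smyd3, on chromosome 1, encodes a lysine methyltransferase. Its lead, Smyd3-205, is a processed transcript of 693 bases in 3 exons that shares no base with the counterpart Smyd3-202. It shares exons with the end of the coding form Smyd3-204. The sequences below, from GENCODE M21 with the first shared exon boundary in capitals, show what sets Smyd3-205 apart from Smyd3-204.
Smyd3-204: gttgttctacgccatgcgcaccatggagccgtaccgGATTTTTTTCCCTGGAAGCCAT
Smyd3-205: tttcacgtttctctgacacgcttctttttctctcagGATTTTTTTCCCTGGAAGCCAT

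Smyd3-205 was listed at 0 in the 3 unstretched samples of experiment 2 and took 13.9%, 20.05% and 13.2% of the gene under high stretch. In experiment 1 it was also listed at 0 in all 3 unstretched samples, and it took 12.7%, 14.7% and 16.0% in low-stretch replicates 2, 3 and 6 and was listed at 0 in replicates 1, 4 and 5. It was above 0 in no unstretched sample and in 3 of the 6 low-stretch ones, and each run held 1 sample of each kind. It did not enter the usage test of experiment 1, and the level test gave a log2 change of 1.79 ± 0.99 (SE; limma adjusted p 0.382). The counterpart took 53.3% to 57.7% unstretched and 49.0% to 60.2% under low stretch, a usage change of -0.04 ± 0.16 (SE; limma adjusted p 0.951). The gene was at 5.82, 5.97 and 5.16 TPM unstretched and 6.28 to 7.75 TPM under low stretch, without overlap, with a log2 fold change of 0.29 ± 0.10 (SE; edgeR adjusted p 0.104, and 0.0113 with the run as a block). Under high stretch it was at 8.54 to 8.73 TPM against 6.27 to 6.40 TPM.

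Ptar1, on chromosome 19, encodes a protein with the repeats of prenyltransferase alpha subunits, the family that attaches lipid groups to Rab proteins. Its counterpart, Ptar1-205, is 12574 bases long, of which 11611 are the last exon. The lead, Ptar1-202, is 1722 bases long and skips an exon of 290 bases, as does Ptar1-203, and its annotated coding sequence is 198 bases against 1272 bases in Ptar1-205. The sequences before the last exon, in capitals, show the skip and come from GENCODE M21.
Ptar1-205: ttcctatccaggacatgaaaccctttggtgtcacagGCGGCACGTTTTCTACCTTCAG
Ptar1-202: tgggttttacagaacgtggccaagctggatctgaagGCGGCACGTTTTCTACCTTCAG

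Ptar1-202 was listed at 0 in all 12 samples outside high stretch and took 14.2%, 9.40% and 16.4% there. Ptar1-203, which skips the same exon, took 20.5%, 23.9% and 17.3% unstretched and 13.4%, 18.2% and 11.9% under high stretch, and the 2 summed to 20.6% ± 3.33 (SD, n = 3) and 27.9% ± 0.406 (SD, n = 3). In experiment 1 that sum was 2.90% ± 0.815 (SD, n = 3) and 4.03% ± 2.21 (SD, n = 6) for the same order of groups. The unstretched samples of the 2 experiments thus did not overlap in this sum; that difference was not tested. Ptar1-205 took 97.8%, 96.2% and 97.3% in the unstretched samples of experiment 1 and 37.3%, 25.7% and 82.7% in those of experiment 2. Under high stretch it took 23.9%, 18.8% and 28.3%, so this counterpart overlapped between the groups of experiment 2. Ptar1-204, a partial transcript of 601 bases, was listed at 0 in all of experiment 1, took 42.3%, 50.4% and 0% unstretched in experiment 2, and took 48.5%, 53.5% and 43.3% under high stretch. Unstretched replicate 3 of experiment 2 stood apart from the others of its group in both transcripts. The gene was at 9.01 to 12.6 TPM and 2.55 to 3.57 TPM in the unstretched samples of the 2 experiments, and the low-stretch log2 fold change of its counts was -0.32 ± 0.13 (SE; edgeR adjusted p 0.166, and 0.0280 with the run as a block).

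The other genes of the members' families and pathways gave 0 genes that rose and 2 that fell under low stretch among 52 of 53 tested, beside 400 that rose and 781 that fell among all 21672 genes. With the run as a block 13 of the 52 rose and 6 fell, beside 2972 that rose and 3134 that fell among all 21672 genes. The lists were the R12 RGS, PMP22 and SMYD families, the cilium and Hedgehog genes, ESCRT-I, the exocyst, IKK with NF-kB, and the prenyltransferases. Their median log2 fold change was 0.01, as it was over all genes. Ptch1, the Hedgehog receptor and a target of the pathway, fell by 0.34 ± 0.09 (SE; edgeR adjusted p 0.0498) on the log2 scale, from a mean of 14.0 to 10.3 TPM, and passed in 3 of 17 other settings. Smyd1, a methyltransferase of muscle, fell by 0.92 ± 0.16 (SE; adjusted p 0.0101) from a mean of 0.354 to 0.170 TPM, and passed in 11 of 17. None of the 11 tested exocyst partners, 8 ESCRT-I partners or 9 IKK and NF-kB partners passed without the block.

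Across all 15 samples, the share most like that of Ikbkg-209 among 21479 transcripts of other genes was that of an Fhl1 transcript, with a root mean square difference of 2.16 points, and the share most like that of Rab34-203 was that of a Mid1 transcript, at 2.78 points. The nearest shares to the other leads were those of transcripts of Gnptab for Kif7-201 (3.95 points), Smarcd3 for Emp3-202 (3.98 points), Rybp for Vps37b-202 (4.28 points), Wdr59 for Ptar1-202 (5.04 points), BC025920 for Smyd3-205 (5.04 points), Fosl1 for Rgs12-202 (5.05 points) and Rundc3a for Exoc3l4-211 (10.6 points). These are descriptions over samples that include those used to choose the leads.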

How the data were processed

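Poly(A) RNA of 15 samples was sequenced. The deposited gene counts are raw read counts, for which the submitters' processing notes name STAR 2.7.5c, featureCounts of Subread 2.0.0, DESeq2 1.38.3 and the build mm39. The deposited TPM values per transcript come from the authors' quantification, for which the same notes name Salmon 1.9.0. The annotation release and strand setting are not given in the sources used here. Transcripts were matched by ID to GENCODE M21 (GRCm38), so no coordinates are given, and transcripts without a match are in no denominator.

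Usage was log2((transcript TPM + 0.1)/(TPM of the other transcripts of the gene + 0.1)), for genes with a mean of at least 1 TPM and shares of 5% to 95%. Level was log2(TPM + 0.1) with a mean of at least 0.1 TPM. Both were tested with limma 3.58.1 and counts with edgeR 4.0.16 (quasi-likelihood, TMM, filterByExpr) in R 4.3.3, at a Benjamini-Hochberg adjusted p of 0.05 over all features. A fold on these log scales understates the change of low transcripts. Comparisons were made within an experiment. The lead, the counterpart, most other transcripts of at least 10% share and the nearest share by root mean square difference were named. Ikbkg-202, Smyd3-206 and Exoc3l4-202 also reached that share and are not described above. Their mean shares under low stretch went from 27.2% to 24.4%, 22.9% to 21.2% and 7.94% to 8.49%. Under high stretch they went from 17.6% to 15.8%, 26.9% to 21.9% and 14.7% to 0.649%. Ikbkg-203 and Smyd3-204 reached it too but are named above only for their sequence. Their mean shares went from 26.6% to 24.2% and 18.3% to 14.8% under low stretch, and from 24.7% to 21.9% and 12.2% to 10.5% under high stretch. Smyd3-204 did not overlap in either experiment, by narrow gaps, and its low-stretch usage change was -0.36 ± 0.11 (SE; limma adjusted p 0.369). Members and lists were chosen with earlier results of these data known. On simulated data each fit recovered 100% of 200 features with a log2 change of 2, with 24 false calls among 27856 transcripts for usage, 7 among 63451 for level and 8 among 21543 genes. The simulated samples were independent, with no run sets and the same spread for every transcript. Only transcripts of middling share in well expressed genes were changed. The recovery therefore does not say that shifts of the leads, often of low share or listed at 0, would be found. Alternatives were other pseudocounts, filters, DESeq2, blocks and samples left out. Columns of the files left unused numbered 0. Replicate numbers did not pair the samples of experiment 1, and for experiment 2 this was not settled.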

Additional observations from a re-analysis of the deposited data

Results flagged for a closer look

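Of 27 groups of low-stretch shares looked at, 4 had a highest or lowest sample whose gap to the next, divided by the range of the group, exceeded Dixon's 95% critical value for 6 samples. Chance flags about 1 in 20 groups of normally distributed values. That rate does not hold for Kif7-204 and Vps37b-201, where the other samples are tied and the ratio is 1 by construction. In low-stretch replicate 3 the share of Kif7-201 was the lowest, at 0%, and that of Kif7-204 the highest, at 10.9%. The share of Vps37b-201 was lowest in replicate 1, at 99.3%, and that of Ptar1-205 in replicate 3, at 91.6%.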

How the results depend on the processing

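Under low stretch, 4 of 27672 transcripts passed for usage. The count was 1 with a pseudocount of 0.01 TPM, 79 with 1 TPM, 91 with no filter on low values, and 1 to 8 with 1 sample left out. For transcript level 417 passed, with 253 and 712 at those pseudocounts and 16 to 492 with 1 sample left out. For genes 1181 passed, 2694 with DESeq2 and 220 to 1630 with 1 sample left out. Leaving out a run of neighbouring codes was chosen after seeing the data. It gave 8 for usage without run 3, 20, 36 and 76 for level without runs 1, 2 and 3, and 15 and 190 for genes without runs 1 and 2. Under high stretch 0 of 23374 passed for usage, 44 with a pseudocount of 1 TPM, and 0 to 10 with 1 sample left out, the 10 without unstretched replicate 3. The leads moved alike in 7 of 9 genes, in 4 of 6 among protein-coding transcripts only, and in 7 to 8 with 1 sample left out.

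In a fit with a replicate block, where low-stretch replicates 4 to 6 have no partner and drop out, 0 transcripts passed for usage, 0 for level and 490 genes. The pairing check gave correlations of -0.447 to 0.376 for same-numbered samples of experiment 1, with a mean of -0.0723 against 0.0152 for other pairs. There the samples share only a number. In experiment 2 the correlations were -0.267 to 0.609, with a mean of 0.227 against -0.131. Same-numbered samples of experiment 2 also have neighbouring codes, and whether they are paired was not settled. With the run of codes as a block, 54 passed for usage, 5587 for level and 6106 genes. Deviations within those runs correlated at 0.332 to 0.579 in experiment 1, with a mean of 0.449 against -0.223 for other pairs.

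The direction turned for the usage of Exoc3l4-201 (0.069 with a pseudocount of 1 TPM, from -0.23), of Kif7-201 (0.10 with that pseudocount, -0.54 to 0.19 with 1 sample left out) and of Smyd3-202 (0.29 among protein-coding transcripts, 0.045 without run 3, -0.11 to 0.021 with 1 sample left out). It also turned for the level of Emp3-202 (-0.056 to 0.36 with 1 sample left out) and of Exoc3l4-211 (0.082 with the replicate block, 0.078 without run 2, -0.31 to 0.28 with 1 sample left out). None of these passed its test as reported, and the cause was not tested. Depth limits Exoc3l4 most, and TPM carry no depth for any transcript.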
